A study of Mus musculus with 8 samples.

Results

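The cytosolic nucleic acid sensors and the TBK1-type kinases were followed as 10 genes of 54146 in the deposited expression files. They were taken by symbol and all 10 were found in every file. The double-stranded RNA receptors were Ddx58 (RIG-I), Ifih1 (MDA5) and Dhx58 (LGP2), and their shared adaptor was Mavs. The other sensors were Eif2ak2 (PKR), Zbp1 and Tmem173 (STING), the kinases were Tbk1 and Ikbke (IKKε), and Adar, an RNA editing enzyme, was the remaining member. Primary mouse astrocytes carried a lentiviral short hairpin against Gstm1 (GSTM1 KD) or a non-silencing one (control KD), and were left without stimulation (basal) or given TNF-α at 50 ng/ml for 6 h. Each of the 4 groups had 2 libraries, 8 in all. Every group shared the same start, glia from cortices of newborn C57BL/6 pups that were infected, selected with puromycin and depleted of CD11b-positive cells. The replicates were named biological, but neither the labels nor the methods say which cultures shared a preparation, so the p-values below measure the spread between these libraries only. The question put to these genes was whether loss of GSTM1, a glutathione S-transferase, altered their levels before and after TNF-α.

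RIG-I and MDA5 recognise double-stranded RNA in the cytosol and pass the signal through MAVS on the mitochondrial surface, while STING carries the signal of the DNA sensor cGAS. Both routes end at TBK1 and IKKε, which phosphorylate interferon regulatory factors and so switch on the gene for interferon beta. Several of the sensors are themselves interferon-stimulated genes, so the sensing machinery grows when interferon is present. Astrocytes carry this machinery and produce interferon beta in viral infection of the brain.

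Total expected counts ran from 17349676 to 34434633 per library, and 19371 to 21557 genes had a count. Gstm1 itself was at 231 and 377 CPM (counts normalised to library size) in the basal control KD libraries and at 29.0 and 31.4 CPM in the basal GSTM1 KD libraries. After TNF-α it was at 209 and 391 CPM against 24.3 and 23.3 CPM. This was a log2 difference of -3.33 in the basal state and -3.68 after TNF-α (edgeR adjusted p = 0.0132 and adjusted p = 0.00981). Summed astrocyte markers were between 1581 and 5724 TPM (abundances corrected for gene length) and were lowest in control KD replicate 1 of both states. Microglial markers summed to between 1.52 and 7.0 TPM, highest in those same 2 libraries, with Itgam, the CD11b gene, at no more than 0.67 TPM. Oligodendrocyte lineage markers summed to between 62.1 and 133 TPM, neuronal markers to between 182 and 237 TPM, meningeal fibroblast markers to between 44.0 and 112 TPM and ependymal or choroid plexus markers to between 65.1 and 117 TPM. Endothelial markers summed to no more than 3.21 TPM with Cldn5 at 0 in all 8 libraries. These are bulk libraries, in which fewer cells of a type and less RNA per cell cannot be told apart.

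The genes lie apart in the genome (GRCm38, gene models of GENCODE vM21), and all are protein coding. Of the RNA receptors, Ifih1 is at chr2:62595798-62646255, Ddx58 at chr4:40203773-40239828 and Dhx58 at chr11:100694884-100704271, all on the minus strand. Mavs is at chr2:131234063-131248025 on the plus strand. Eif2ak2 is at chr17:78852564-78882573 and Zbp1 at chr2:173206612-173218923, both on the minus strand. Tbk1 is at chr10:121546455-121586787 and Ikbke at chr1:131254343-131279606 on the minus strand, and Adar is at chr3:89715022-89753446 on the plus strand. Exons of Dhx58 (Dhx58os), Eif2ak2 (n-R5s29 and Gm26637), Ikbke (Gm28914 and Gm28913) and Adar (Chrnb2) overlap genes of the opposite strand. The library kit keeps strand, but the strand setting of the counting is not given in the sources used here, so reads of these partners may not have been separated.

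Promoter windows of 300 bases (RefSeq, GRCm38.p6) were at hand for 7 of the 10 members, Adar with 3 start sites. Dhx58, Zbp1 and Tmem173 were not used in this comparison. The windows were searched on both strands for the core of the interferon-stimulated response element, GAAANNGAA, for the gamma-activated site, TTCNNNGAA, and for the kappa-B motif. The interferon-stimulated core was in the windows of Ifih1, Ddx58, Eif2ak2 and one start of Adar, against 9.76% of all genes in the promoter table. Those windows are shown because the same 4 genes responded to TNF-α in GSTM1 KD astrocytes, with capitals marking the motif matches. They are chr2:62646206-62646505 (Ifih1, minus strand), chr4:40239776-40240075 (Ddx58, minus), chr17:78882523-78882822 (Eif2ak2, minus) and chr3:89730468-89730767 (the most downstream Adar start, plus).
Ifih1: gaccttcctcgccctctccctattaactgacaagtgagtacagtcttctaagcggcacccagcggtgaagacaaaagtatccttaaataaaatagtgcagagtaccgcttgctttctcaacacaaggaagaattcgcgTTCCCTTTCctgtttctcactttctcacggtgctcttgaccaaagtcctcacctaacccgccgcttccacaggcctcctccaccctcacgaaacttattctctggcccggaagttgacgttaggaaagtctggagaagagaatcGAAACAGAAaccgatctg
Ddx58: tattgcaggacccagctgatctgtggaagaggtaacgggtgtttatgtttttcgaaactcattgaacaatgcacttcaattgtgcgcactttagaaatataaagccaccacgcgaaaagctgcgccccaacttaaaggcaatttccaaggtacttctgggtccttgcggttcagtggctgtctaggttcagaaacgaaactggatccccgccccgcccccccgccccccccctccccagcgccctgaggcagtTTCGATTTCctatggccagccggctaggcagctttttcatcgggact
Eif2ak2: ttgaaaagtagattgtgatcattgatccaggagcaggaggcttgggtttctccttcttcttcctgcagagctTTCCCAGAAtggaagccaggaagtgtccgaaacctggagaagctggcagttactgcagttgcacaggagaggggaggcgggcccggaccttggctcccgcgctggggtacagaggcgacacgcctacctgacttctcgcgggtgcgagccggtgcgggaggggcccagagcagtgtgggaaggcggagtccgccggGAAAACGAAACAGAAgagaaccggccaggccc
Adar: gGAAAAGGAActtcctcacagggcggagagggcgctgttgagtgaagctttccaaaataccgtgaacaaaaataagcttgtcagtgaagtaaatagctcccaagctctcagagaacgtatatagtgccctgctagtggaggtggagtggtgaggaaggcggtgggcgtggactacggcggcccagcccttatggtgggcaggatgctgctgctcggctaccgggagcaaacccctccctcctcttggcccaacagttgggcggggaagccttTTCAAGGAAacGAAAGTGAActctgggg
Counted from the start site to the left end of the match, the core was at -112 and 32 in Ifih1, at 3 in Ddx58, at 18 and 24 in Eif2ak2, where the 2 matches overlap, and at -249 and 33 in Adar. A match to the gamma-activated site was at -178 in Eif2ak2 and at 22 in Adar, against 9.55% of all genes. The windows of Mavs, Tbk1 and Ikbke and of the other 2 Adar starts held none of the 3 motifs. None of the 7 members searched held a kappa-B match, against 9.55% of all genes. A match is a run of letters only and was not tested for binding.

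Per length, the members covered a wide range of levels. In basal control KD astrocytes the highest deposited mean TPM were those of Adar (33.1) and Mavs (32.1), whose libraries overlapped, followed by Eif2ak2 (27.4), Ddx58 (25.8) and Tbk1 (23.3), each overlapping its neighbour. Ifih1 stood lower at 9.23 TPM, Dhx58 (3.52) and Ikbke (3.31) overlapped each other, and Tmem173 (0.95) and Zbp1 (0.54) were the lowest. Basal GSTM1 KD astrocytes kept Adar (37.4) and Mavs (33.8) on top, and Ddx58 (32.6) overlapped Mavs. There Tmem173 (0.33) was below Zbp1 (1.05), the reverse of the control order. After TNF-α in control KD astrocytes Ddx58 (52.9) and Adar (48.2) led without overlap, and Ikbke (8.20) stood above Dhx58 (5.10). In GSTM1 KD astrocytes after TNF-α Ddx58 reached 143 TPM, Adar 79.5 and Eif2ak2 58.6, the last overlapping Ifih1 at 46.8. Mavs (31.4) and Tbk1 (30.5) overlapped each other there, as did Zbp1 (17.0) and Dhx58 (15.0), and Ikbke was at 6.39 and Tmem173 at 0.31 TPM. Mavs thus moved from rank 2 in the basal control group to rank 5 in GSTM1 KD astrocytes after TNF-α, at 32.1 and 31.4 TPM.

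**Figure D1:**
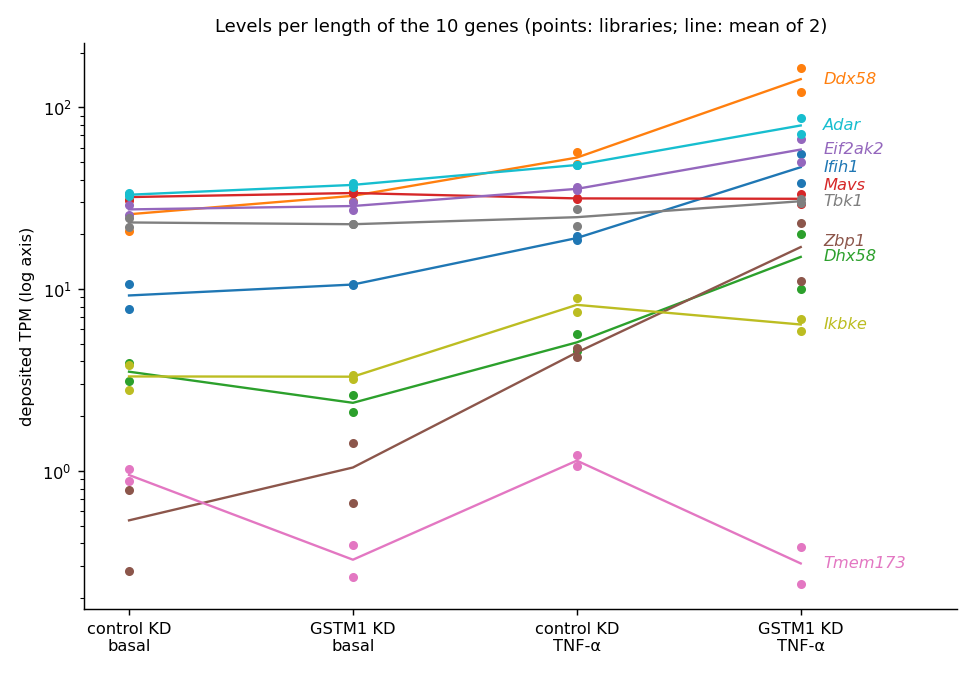
Deposited TPM of the 10 genes on a log axis in the 4 groups, with a point for each library and a line through the means of 2. Mavs and Tbk1 run nearly flat, Ddx58 climbs from 25.8 to 143 TPM, and Tmem173 is lower in both GSTM1 KD groups.

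After TNF-α both GSTM1 KD libraries stood above both control KD libraries for each of the 3 RNA receptors, in a comparison where the groups did not overlap for 66.6% of all genes tested. Ifih1, whose product binds long double-stranded RNA, was at 17.5 and 24.3 CPM in basal control KD and at 22.1 and 24.7 CPM in basal GSTM1 KD libraries, replicate 1 given first here and below. After TNF-α it was at 43.1 and 45.9 CPM in control KD and at 134 and 82.5 CPM in GSTM1 KD libraries. The basal groups overlapped, and after TNF-α both GSTM1 KD libraries stood above both control KD libraries. Ddx58, the sensor of short RNA with a 5′ triphosphate end, was at 42.7 and 59.8 CPM in basal control KD and at 68.6 and 59.9 CPM in basal GSTM1 KD libraries. It was at 101 and 117 CPM against 330 and 232 CPM after TNF-α. Its GSTM1 KD libraries were the higher ones in both states, although basal control KD replicate 2 and GSTM1 KD replicate 2 nearly coincided. Dhx58, a related helicase without a signalling domain that modulates the other two, was at 3.59 and 4.81 CPM against 2.88 and 2.5 CPM in the basal state. After TNF-α it was at 6.89 and 5.48 CPM against 21.7 and 11.2 CPM. Dhx58 was therefore lower in both basal GSTM1 KD libraries and higher in both after TNF-α, with no overlap in either state.

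Mavs, the adaptor that both RIG-I and MDA5 need, was at 52.0 and 47.7 CPM in basal control KD and at 50.0 and 50.4 CPM in basal GSTM1 KD libraries. After TNF-α it was at 49.9 and 49.8 CPM against 45.4 and 50.4 CPM. Its 8 libraries overlapped in every comparison.

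The other sensors did not share one pattern. Eif2ak2, the kinase that halts translation when it binds double-stranded RNA, was at 58.1 and 67.5 CPM in basal control KD and at 64.3 and 57.6 CPM in basal GSTM1 KD libraries. It was at 77.6 and 82.0 CPM against 150 and 106 CPM after TNF-α, the GSTM1 KD libraries being higher only then. Zbp1, which binds Z-form nucleic acid and can start necroptosis, was counted 14 and 3 times in basal control KD and 10 and 7 times in basal GSTM1 KD libraries. After TNF-α its counts were 55 and 33 with control hairpin (2.37 and 1.99 CPM) and 320 and 122 with the Gstm1 hairpin (14.8 and 7.01 CPM), so that the groups separated only after TNF-α. Tmem173, the STING adaptor of cytosolic DNA sensing (chr18:35733679-35740554, minus strand), was low throughout, with 44 and 27 counts (1.24 and 1.06 CPM) in basal control KD libraries against 7 and 9 counts (0.300 and 0.451 CPM) in basal GSTM1 KD ones. After TNF-α it had 30 and 25 counts (1.29 and 1.5 CPM) against 10 and 5 counts (0.462 and 0.287 CPM). All 4 GSTM1 KD libraries stood below all 4 control KD libraries for Tmem173.

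Of the kinases, Tbk1 was at 30.3 and 34.4 CPM in basal control KD and at 33.5 and 33.9 CPM in basal GSTM1 KD libraries. It was at 32.9 and 42.0 CPM against 43.2 and 39.9 CPM after TNF-α, and the knockdown groups overlapped in both states. Ikbke, the inducible relative of Tbk1, was at 4.52 and 5.59 CPM against 5.49 and 4.46 CPM in the basal state. After TNF-α it was at 10.9 and 15.0 CPM in control KD and at 11.4 and 8.74 CPM in GSTM1 KD libraries, above every basal library but with the knockdown groups overlapping. Adar, which edits adenosine in double-stranded RNA and so keeps cellular RNA from MDA5 and PKR, was at 88.7 and 95.8 CPM in basal control KD and at 101 and 102 CPM in basal GSTM1 KD libraries. After TNF-α it was at 127 and 141 CPM against 229 and 183 CPM. The GSTM1 KD libraries were the higher ones in both states, with a much wider gap after TNF-α.

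**Figure D2:**
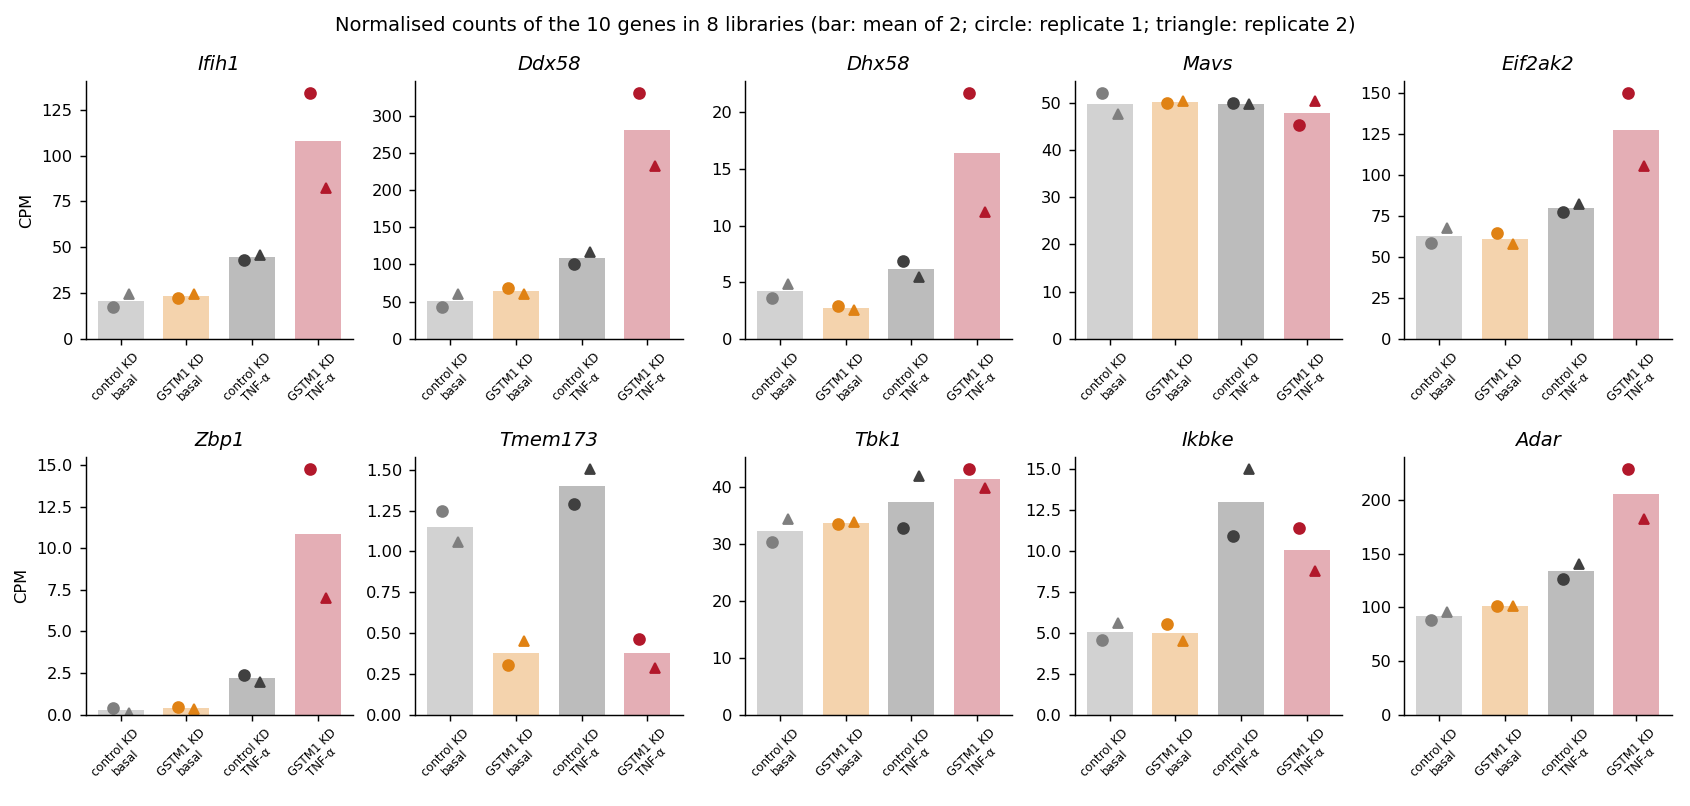
Normalised counts (CPM, linear axes from 0) of the 10 genes in the 4 groups, with bars for the mean of 2 libraries, circles for replicate 1 and triangles for replicate 2. In the GSTM1 KD group after TNF-α replicate 1 lies above replicate 2 for Ifih1, Ddx58, Dhx58, Eif2ak2, Zbp1 and Adar, and both lie above the control KD libraries.

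In basal astrocytes the knockdown left these genes without a change that passed the test. With edgeR's quasi-likelihood test, adjusted by Benjamini-Hochberg over all 14899 genes tested, 0 of the 9 members tested passed an adjusted p of 0.05, against 10.2% of all genes. Zbp1 was too low to be tested there. At an unadjusted p below 0.05 there was 1 member, Tmem173, against 31.6% of all genes, and DESeq2 called 0 members against 18.2% of the genes it tested. The median log2 fold change of the 9 members was 0.01 and that of all genes -0.00. Tmem173 had the largest difference, -1.62 (95% interval -2.65 to -0.60, edgeR adjusted p = 0.0648), from few counts. It passed in edgeR when all 8 libraries shared the estimate of spread (adjusted p = 0.0311, range over 12 alternatives 0.0119 to 0.342). Dhx58 was at -0.64 (-1.34 to 0.06) and Ddx58 at 0.33 (-0.12 to 0.78). For the rest the intervals were narrower around 0, with Mavs at 0.01 (-0.25 to 0.27), Tbk1 at 0.06 (-0.25 to 0.37), Eif2ak2 at -0.04 (-0.35 to 0.26) and Adar at 0.14 (-0.11 to 0.39). Ikbke (-0.02, interval -0.63 to 0.59) and Ifih1 (0.16, -0.32 to 0.65) were less sharply bounded. The groups did not overlap for 4 of the 10 members, against 63.4% of all genes tested. Leaving out basal control KD replicate 2 brought Ddx58 (0.58, adjusted p = 0.00595, range over 13 alternatives 0.00595 to 0.665) and Tmem173 past the threshold in edgeR, 2 of the 10 members, all of which were tested there. That share is below the 34.2% of all genes called in the same fit.

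After TNF-α, 4 members were higher in GSTM1 KD than in control KD astrocytes and 1 was lower. Zbp1 was higher by 2.29 on the log2 scale (95% interval 1.25 to 3.34, edgeR adjusted p = 0.0262), Ddx58 by 1.35 (0.87 to 1.83, adjusted p = 0.0170), Ifih1 by 1.26 (0.68 to 1.84, adjusted p = 0.0272) and Adar by 0.60 (0.24 to 0.95, adjusted p = 0.0452). These are fold differences of 4.90, 2.55, 2.40 and 1.51. Tmem173 was the lower member, at -1.88 (-2.93 to -0.82, edgeR adjusted p = 0.0413). Higher calls were 7.26% and lower calls 8.92% of the 14593 genes tested, and the median log2 fold change was 0.63 over the 10 members and -0.01 over all genes. Dhx58 (1.38, interval 0.51 to 2.26, adjusted p = 0.0526 in edgeR) and Eif2ak2 (0.65, 0.21 to 1.10, adjusted p = 0.0612 in edgeR) lay just outside the threshold. In DESeq2 both passed, at adjusted p of 0.00175 and 0.0111, and Tmem173 did not (0.0905). Over 13 alternatives the adjusted p of Dhx58 ran from 2.95e-08 to 0.203 and that of Eif2ak2 from 2.69e-05 to 0.244, and over 12 that of Tmem173 from 0.00417 to 0.308. Mavs (-0.08, -0.34 to 0.18), Tbk1 (0.13, -0.24 to 0.49) and Ikbke (-0.38, -0.97 to 0.21) did not pass. The groups did not overlap for 7 of the 10 members, 6 above and 1 below, against 66.6% of all genes tested.

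The higher calls leaned on GSTM1 KD replicate 1 after TNF-α. Its CPM was 1.62 times that of replicate 2 for Ifih1, 1.42 times for Ddx58 and 1.93 times for Dhx58. The ratio was 1.42 for Eif2ak2, 2.11 for Zbp1 and 1.25 for Adar, but 0.90 for Mavs and 1.08 for Tbk1. The excess was not confined to members that were higher in GSTM1 KD. Ikbke, by a larger ratio than Adar, and Tmem173 (1.61 times, from 10 and 5 counts) were also higher in replicate 1. Without that replicate the differences were 0.88 for Ifih1, 1.08 for Ddx58, 1.66 for Zbp1 and 0.44 for Adar, and 0 of the 10 members and 0 of all genes passed in edgeR. Without replicate 2, Ifih1, Ddx58 and Zbp1 passed, and Adar (0.76) and Tmem173 (-1.60) did not, in a fit that called far fewer of all genes. Adar (adjusted p = 0.0527) and Tmem173 (0.0597) also missed the threshold in edgeR without control KD replicate 1 after TNF-α, the ranges over all alternatives being 0.000130 to 0.234 and 0.00417 to 0.308. Summed microglial markers were 4.16 and 1.98 TPM in GSTM1 KD replicates 1 and 2 after TNF-α and 6.63 and 2.16 TPM in the control KD libraries, and summed astrocyte markers were 3496 and 5420 against 1581 and 3643 TPM. The part of cell composition in these differences was not tested.

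**Figure D3:**
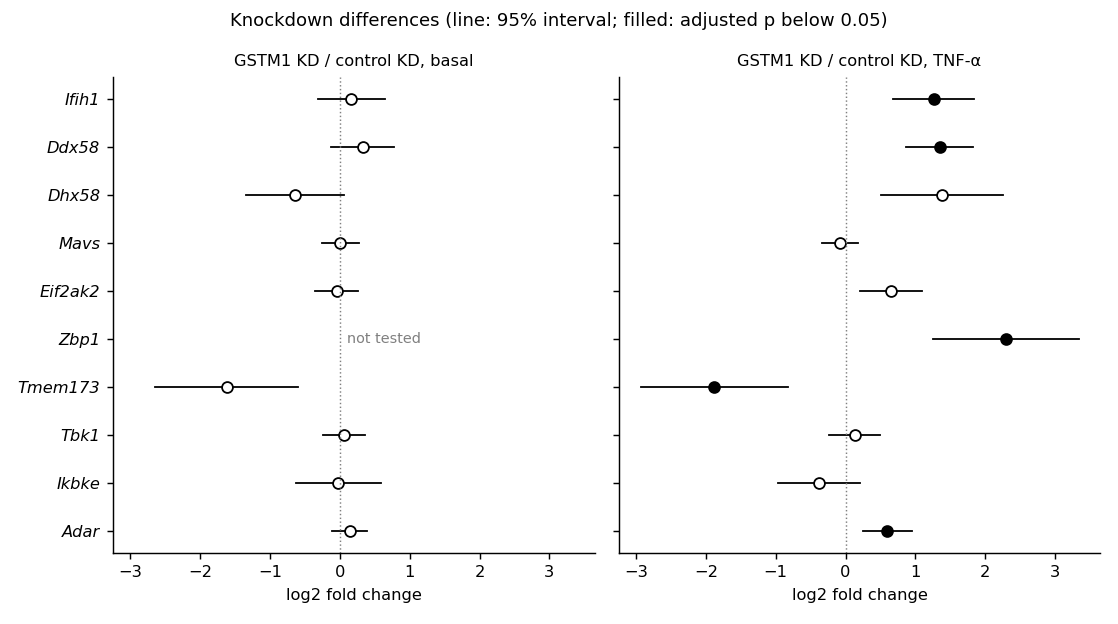
Log2 fold change of GSTM1 KD against control KD in the basal state and after TNF-α, with 95% intervals and filled symbols for an edgeR adjusted p below 0.05. No symbol is filled in the basal state, and after TNF-α those of Ifih1, Ddx58, Zbp1 and Adar lie to the right of 0 and that of Tmem173 to the left.

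In control KD astrocytes TNF-α raised Ikbke and Zbp1. Ikbke rose by 1.35 on the log2 scale (95% interval 0.79 to 1.92, edgeR adjusted p = 0.0334), a fold change of 2.56, and Zbp1 rose by 2.98 (1.64 to 4.33, adjusted p = 0.0459) from 14 and 3 counts. Thus 2 of the 10 members were called higher, against 2.1% of the 15332 genes tested. Ddx58 (1.08, 0.58 to 1.59, adjusted p = 0.0512 in edgeR), Ifih1 (1.09, 0.52 to 1.67, adjusted p = 0.0752) and Adar (0.54, 0.25 to 0.83, adjusted p = 0.0818) did not pass, but all 3 did in DESeq2, which called 5 members and 4.58% of the genes it tested in either direction. Dhx58 was at 0.57 (-0.22 to 1.36), Eif2ak2 at 0.35 (-0.05 to 0.74), Tbk1 at 0.21 (-0.11 to 0.53), Tmem173 at 0.27 (-0.53 to 1.07) and Mavs at -0.00 (-0.21 to 0.21). The median over the 10 members was 0.55, against -0.02 over all genes, and 8 of 10 had groups that did not overlap, against 34.5% of all genes tested. Neither Ikbke nor Zbp1 passed in every fit that left out 1 library, and Ifih1 and Ddx58 passed in some. Fewer of all genes were called in each of those fits too. Over those fits the rise was between 1.13 and 1.57 for Ikbke and between 2.46 and 4.15 for Zbp1. It was between 0.87 and 1.35 for Ifih1 and between 0.86 and 1.35 for Ddx58. In the 4 control KD libraries alone 0 members passed in edgeR, against 0.486% of all genes. Zbp1 was at 4.15 without basal control KD replicate 1, the library with 14 counts, and at 2.46 without basal control KD replicate 2.

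In GSTM1 KD astrocytes TNF-α raised 6 members, namely all 3 RNA receptors, Eif2ak2, Zbp1 and Adar. Zbp1 rose by 4.78 on the log2 scale (95% interval 3.47 to 6.09, edgeR adjusted p = 0.00585), from 10 and 7 counts, and Dhx58 by 2.61 (1.78 to 3.44, adjusted p = 0.0106), a fold change of 6.10. Ifih1 rose by 2.21 (1.62 to 2.80, edgeR adjusted p = 0.00523) and Ddx58 by 2.13 (1.61 to 2.65, adjusted p = 0.00373), fold changes of 4.63 and 4.38. Eif2ak2 rose by 1.07 (0.67 to 1.46, edgeR adjusted p = 0.0218) and Adar by 1.02 (0.73 to 1.31, adjusted p = 0.00683), fold changes of 2.09 and 2.03. Of all genes, 2.35% were called higher. Ikbke, at 1.01 (0.44 to 1.59, adjusted p = 0.102 in edgeR), did not pass here, although it did in DESeq2 (0.0189, range over 17 alternatives 0.00146 to 0.553). Tbk1 was at 0.30 (-0.02 to 0.62), Tmem173 at 0.03 (-1.02 to 1.08) and Mavs at -0.07 (-0.28 to 0.15). The median over the 10 members was 1.04, against -0.01 over all genes, and 8 of 10 had groups that did not overlap, against 44.5% of all genes tested. Without basal GSTM1 KD replicates 1 and 2 Ifih1 was at 2.14 and 2.30 and Ddx58 at 2.24 and 2.04. The members' calls were lost in edgeR in those fits, as were most calls over all genes. Without GSTM1 KD replicate 1 after TNF-α Eif2ak2 was at 0.79 and missed the threshold, in a fit that also called fewer of all genes. The comparisons between states and between knockdowns share libraries and are not independent of each other.

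**Figure D4:**
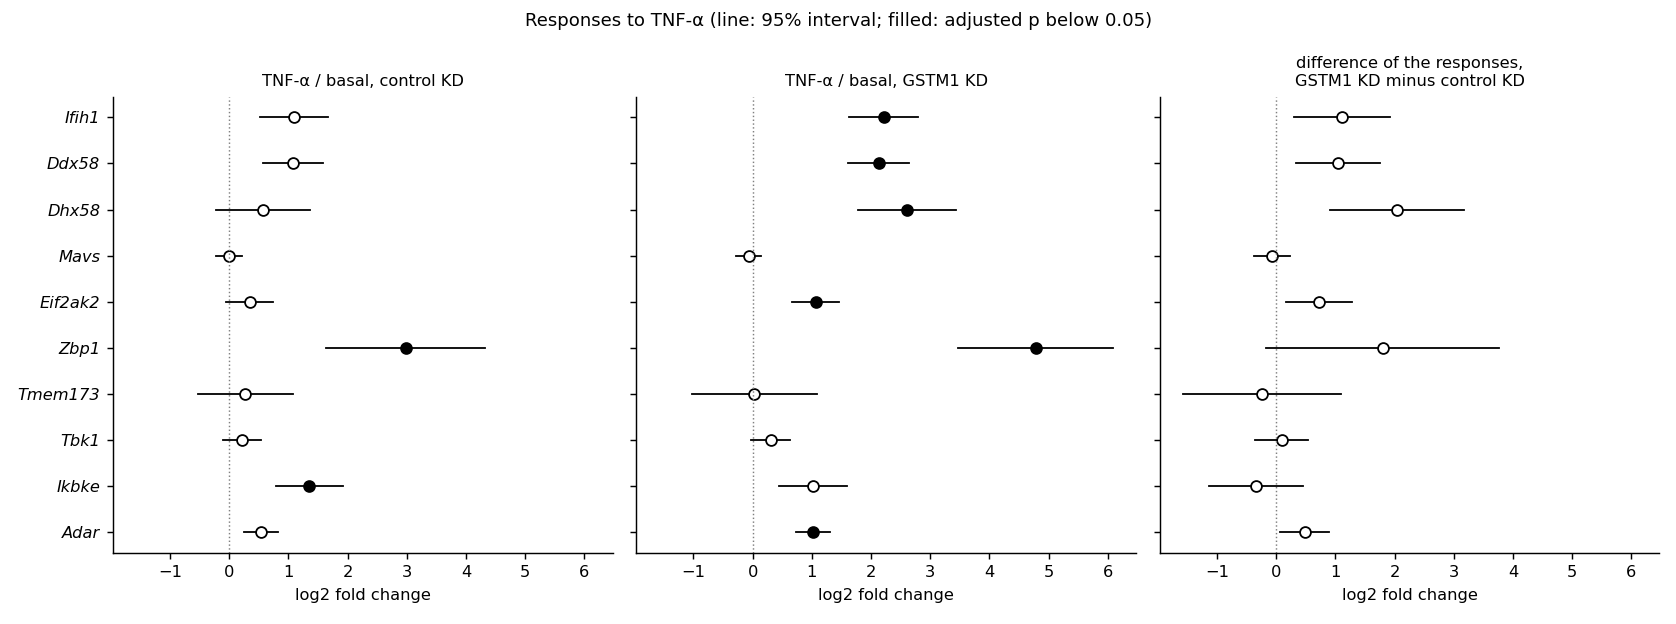
Log2 fold change after TNF-α against basal in control KD and in GSTM1 KD astrocytes, and the difference between these responses, with 95% intervals and filled symbols for an edgeR adjusted p below 0.05. Ikbke and Zbp1 are filled in control KD, 6 genes are filled in GSTM1 KD, and none is filled for the difference.

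Whether the response to TNF-α itself differed between the knockdowns was tested as a difference of responses, GSTM1 KD minus control KD. It was 2.04 for Dhx58 (95% interval 0.91 to 3.17 in edgeR), 1.12 for Ifih1 (0.31 to 1.93), 1.05 for Ddx58 (0.34 to 1.75), 0.72 for Eif2ak2 (0.16 to 1.28) and 0.48 for Adar (0.07 to 0.89). These 5 intervals lay above 0. Adjusted over all genes, each had an adjusted p = 1 in edgeR, and 0 of 10 members passed, as did 0% of the 15332 genes. At an unadjusted p below 0.05 there were 5 of 10 members, against 1.92% of all genes, and DESeq2 called 0 members against 0.157% of the genes it tested. Without the filter on low counts 4 members passed in edgeR (Ifih1, Ddx58, Dhx58 and Eif2ak2), against 0.506% of all genes. Zbp1 was at 1.80 (-0.17 to 3.76), and at 0.63 without basal control KD replicate 1, 2.32 without basal control KD replicate 2 and 1.14 without GSTM1 KD replicate 1 after TNF-α. Mavs (-0.07, -0.37 to 0.24) and Tbk1 (0.09, -0.36 to 0.55) had narrow intervals around 0, while Ikbke (-0.34, -1.14 to 0.46) and Tmem173 (-0.24, -1.58 to 1.10) were bounded less well. The median over the members was 0.60 and that over all genes 0.02.

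**Figure D5:**
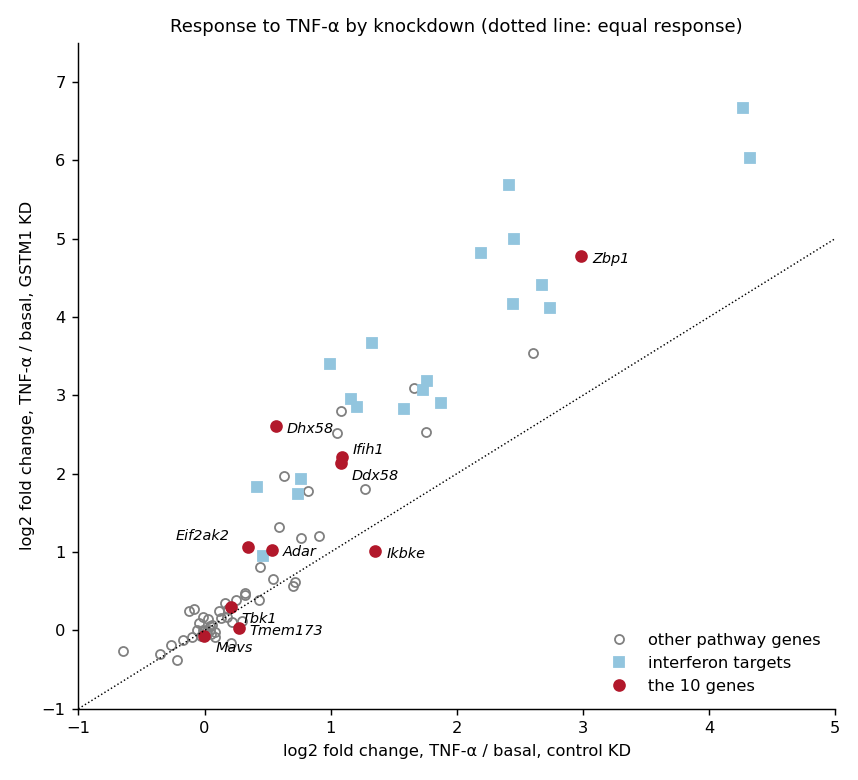
Log2 fold change after TNF-α in GSTM1 KD (vertical) against control KD astrocytes (horizontal) for the 10 genes, 20 interferon targets and 49 other genes of the pathway, where the dotted line marks an equal response. Of the 10 genes 7 lie above the line, and Ikbke, Tmem173 and Mavs lie below it, and Ifnb1, with no basal counts, is not drawn.

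Around the sensors, the ligases and cofactors behaved unevenly. Of a list of 10 genes, 4 rose with TNF-α in GSTM1 KD astrocytes, against 2.35% of all genes. They were Trim25, the RIG-I ligase (2.52, edgeR adjusted p = 0.00636), Ddx60, a helicase cofactor (2.54, adjusted p = 0.00878), Zc3hav1, the zinc finger antiviral protein (1.78, adjusted p = 0.0105), and Rnf135, another RIG-I ligase (1.18, adjusted p = 0.0247). In control KD astrocytes only Ddx60 passed (1.75, edgeR adjusted p = 0.0416), 1 of 10 against 2.1% of all genes. This call was lost in edgeR without any one basal or control KD library, in fits that also called fewer of all genes. More of the list passed without either GSTM1 KD library after TNF-α. The calls for TNF-α in GSTM1 KD were lost without either basal GSTM1 KD library, as were most calls over all genes. Ddx60 was the 1 gene of the 10 that was higher in GSTM1 KD astrocytes after TNF-α (1.41, adjusted p = 0.0420), against 7.26% of all genes. In the basal state Zcchc3, a cofactor of cGAS and RIG-I, was higher (0.71, edgeR adjusted p = 0.0480) and Zc3hav1 was lower (-0.72, adjusted p = 0.0285) in GSTM1 KD astrocytes. These 2 of 10 stand against 10.2% of all genes. Each library was also left out in turn, an alternative for these lists chosen after seeing the data. Without 1 GSTM1 KD library of a state, few genes or none of the whole table passed in edgeR in that state's knockdown comparison. The calls lost there included those of the cofactors, adaptors, negative regulators and effectors of PKR and ZBP1. Such fits cannot show whether the calls of a list in particular rested on single libraries. Without GSTM1 KD replicates 1 and 2 the median of the cofactors was 0.27 and 0.21 in the basal state and 0.30 and 0.38 after TNF-α. Without basal control KD replicate 2 the cofactors had 4 genes higher and 1 lower in the basal state, against 34.2% of all genes called, and without replicate 1 they had 0 higher and 2 lower, against 14.3%. Without control KD replicate 2 after TNF-α 4 were higher in that state, against 16.7% of all genes. The median log2 fold changes of the list were 0.26 for the basal knockdown comparison, 0.29 after TNF-α, 0.13 for TNF-α in control KD and 0.17 for TNF-α in GSTM1 KD astrocytes.

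Among the 10 adaptors between MAVS or STING and the kinases, the same pair was called in both knockdown comparisons, 1 higher and 1 lower. In the basal state these 2 of 10 stand against 10.2% of all genes. After TNF-α 1 of 10 higher and 1 lower is near the 7.26% and 8.92% of all genes. Traf3, which links MAVS to TBK1, was higher in GSTM1 KD astrocytes, by 1.24 in the basal state (edgeR adjusted p = 0.0192) and by 1.07 after TNF-α (adjusted p = 0.0116). Ripk1, a kinase of the TNF receptor complex, was lower, at -0.88 (edgeR adjusted p = 0.0183) and -0.77 (adjusted p = 0.0131). TNF-α raised Traf2 and Optn in control KD (0.91 and 0.71, edgeR adjusted p of 0.0291 and 0.0346) and Traf2 and Azi2 in GSTM1 KD astrocytes (1.21 and 0.48, adjusted p of 0.00923 and 0.0442), 2 of 10 each against 2.1% and 2.35% of all genes. The count in control KD fell whichever library was left out, as did the calls over all genes. That in GSTM1 KD fell without any library but control KD replicate 1 after TNF-α. It fell most without a GSTM1 KD library, in fits that also called fewer of all genes. Whichever library was left out, the medians were between 0.31 and 0.34 in control KD and between 0.34 and 0.42 in GSTM1 KD. The list's medians in the same 4 comparisons were 0.17, 0.07, 0.31 and 0.39.

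Of 9 negative regulators, Tnfaip3 (A20), a TNF-induced brake on NF-κB and on this pathway, was lower in GSTM1 KD astrocytes both in the basal state (-1.79, edgeR adjusted p = 0.0336) and after TNF-α (-0.88, adjusted p = 0.0315). It rose with TNF-α by 2.61 in control KD and by 3.54 in GSTM1 KD astrocytes (edgeR adjusted p of 0.00789 and 0.00270), the 1 gene of the 9 called in either response, against 2.1% and 2.35% of all genes. The list's call for TNF-α in GSTM1 KD was lost without either basal GSTM1 KD library, as were most calls over all genes. The list kept a call in control KD whichever library was left out. Otud5, a deubiquitinase of TRAF3, was lower in both states (-0.49 and -0.49, edgeR adjusted p of 0.0425 and 0.0279), and Cyld, another deubiquitinase, was higher after TNF-α (0.67, adjusted p = 0.0258). The list thus had 2 calls of 9 in the basal state, against 10.2% of all genes, and 1 higher and 2 lower after TNF-α, against 7.26% and 8.92%. The list's medians were -0.05, -0.05, 0.04 and 0.05. The basal median was 0.04 without basal control KD replicate 1 and -0.14 without replicate 2. The basal calls changed in number in both fits, and higher ones appeared without replicate 2.

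Downstream of the kinases, Irf7, the inducible interferon regulatory factor, was at 27.5 and 23.1 CPM in control KD and at 98.8 and 51.5 CPM in GSTM1 KD libraries after TNF-α, a difference of 1.54 (edgeR adjusted p = 0.0337). Its groups did not overlap, and it rose with TNF-α by 2.80 in GSTM1 KD astrocytes (edgeR adjusted p = 0.00604) against 1.08 in control KD (adjusted p = 0.175). Its call in GSTM1 KD was lost without either basal GSTM1 KD library, as were most calls over all genes. Its call after TNF-α was lost without GSTM1 KD replicate 1, as were all others. For TNF-α in GSTM1 KD the median of Irf3, Irf7 and Ifnb1 was 2.80 with all libraries. It was 2.97 and 2.65 without basal GSTM1 KD replicates 1 and 2, about as large. Irf3, the constitutive factor, passed in none of the 5 comparisons, and its GSTM1 KD libraries were between 18.5 and 21.2 CPM against 22.7 to 27.3 CPM in control KD. Ifnb1, the gene for interferon beta, had 0 counts in all 4 basal libraries, which allows at most 0.15 CPM in any of them. After TNF-α the control KD libraries had 7 and 1 and the GSTM1 KD libraries 25 and 9 counts, and the difference of 2.06 (95% interval 0.18 to 3.93) did not pass in edgeR (adjusted p = 0.115).

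In DNA sensing, Mb21d1, the gene for cGAS, was between 1.05 and 2.59 CPM and passed in none of the comparisons. Of the 9 genes of that list that were tested, TNF-α raised Trex1, a nuclease that removes cytosolic DNA, and Trim56 in control KD (1.66 and 1.27, edgeR adjusted p of 0.0211 and 0.0303). The same 2 genes (3.09 and 1.80, edgeR adjusted p of 0.00239 and 0.00734), Samhd1 (0.66, adjusted p = 0.0339) and Ifi204 (1.32, adjusted p = 0.0442) rose in GSTM1 KD astrocytes. These 2 and 4 of 9 stand against 2.1% and 2.35% of all genes. The count in control KD fell whichever library was left out, as did the calls over all genes. That in GSTM1 KD fell without any library but GSTM1 KD replicate 2 after TNF-α. It fell most without a basal GSTM1 KD library or GSTM1 KD replicate 1 after TNF-α, in fits that also called fewer of all genes. Whichever library was left out, the medians were between 0.15 and 0.49 in control KD and between 0.19 and 0.79 in GSTM1 KD. Of 8 effectors of PKR and ZBP1, 1 was called in each knockdown comparison, against 10.2% of all genes in the basal state and 8.92% called lower after TNF-α. Their basal median of -0.33 was -0.22 without basal control KD replicate 1 and -0.36 without replicate 2. The basal calls changed in number in both fits, and a higher one appeared without replicate 2. Mlkl, the necroptosis executor, was lower in basal GSTM1 KD astrocytes (-1.74, edgeR adjusted p = 0.0282) and at -0.41 after TNF-α (adjusted p = 0.489). Ripk3, the kinase that acts on it, was lower after TNF-α (-1.43, edgeR adjusted p = 0.0452) and at -1.37 in the basal state (adjusted p = 0.0674). The median of these effectors after TNF-α was -0.19 without control KD replicate 1 and -0.28 without replicate 2. A higher call appeared in both fits, which also called more of all genes. Adarb1, the other catalytic adenosine deaminase tested, was at -0.23 in the basal state and -0.07 after TNF-α and did not pass. Olig2 and S100b, which mark oligodendrocyte lineage and astrocytes, were lower in GSTM1 KD libraries in both states, and Folr1, a choroid plexus marker, was higher. How far such shifts bear on these lists was not tested.

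A list of 20 interferon targets served as a reference. After TNF-α 15 of the 20 were higher in GSTM1 KD astrocytes, against 7.26% of all genes, among them Irf9 (1.07, edgeR adjusted p = 0.0178), Rtp4 (1.38, adjusted p = 0.0245) and Cmpk2 (2.28, adjusted p = 0.0250). TNF-α raised 11 of 20 in control KD and 18 of 20 in GSTM1 KD astrocytes, against 2.1% and 2.35% of all genes, with medians of 1.75 and 3.29. These counts moved when each library was left out in turn. GSTM1 KD replicate 1 after TNF-α was above replicate 2 for all 20 targets, by a median of 1.83 times (1.3 to 2.77), and without it 0 of the 20 passed in edgeR in the knockdown comparison after TNF-α, where 0 of all genes passed. Without any one of the other 3 libraries of that comparison 15 or 16 passed. The 11 fell without any control KD or basal GSTM1 KD library and rose without either GSTM1 KD library after TNF-α. The calls over all genes fell in each of those fits. The 18 fell most without either basal GSTM1 KD library, the fits of that response that also called the fewest of all genes. Whichever library was left out, the medians were between 1.45 and 1.94 in control KD and between 2.81 and 3.65 in GSTM1 KD. In the basal state 2 of the 18 tested, Ifit1 (-0.89, edgeR adjusted p = 0.0385) and Oasl1 (-1.92, adjusted p = 0.0456), were lower, near the 10.2% of all genes called there, and the median was -0.08. The median was -0.20 and -0.05 without basal control KD replicates 1 and 2, and higher calls appeared without replicate 2. Without basal GSTM1 KD replicates 1 and 2 the median was -0.25 and 0.09. The list's calls were lost in those fits, as were nearly all calls of the whole table. The difference of their responses had a median of 1.67, in the comparison where no gene of the whole table passed in edgeR. The members' medians in the 2 TNF-α responses, 0.55 and 1.04, lay below those of the interferon targets and above those of all genes.

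Across the 8 libraries the members' nearest genes by pattern were found by Pearson's r of log2 CPM among 15331 other genes. The libraries share treatment and knockdown, so these values are descriptions only. Ifih1 was closest to F830016B08Rik (0.998), Adar (0.994) and Ifi44 (0.994), and Ddx58 to Apol9b (0.995), Adar (0.994) and Cmpk2 (0.994). Adar in turn was closest to Ddx58, Ifih1 and Cmpk2. Dhx58 was closest to Socs1 (0.993), Daxx (0.983) and Usp18 (0.983), and Eif2ak2 to Tlr3 (0.997), H2-T22 (0.995) and Trim30d (0.993). The nearest to Zbp1 were RP24-499A8.3, Iigp1 and Samhd1 (0.989 to 0.990). Ikbke was nearest to Cxcl5 (0.985), Adtrp (0.982) and Bdkrb2 (0.975), a set with none of the genes just named. Tmem173 was nearest to Bend4 (0.991), Rnaseh1 (0.990) and Cnot2 (0.990). Tbk1 (Nudt13, Iws1 and Reep1, 0.965 to 0.973) and Mavs (Zfp273, Tigd5 and RP23-178B19.8, 0.910 to 0.950) had the least close partners.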

How the data were processed

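RNA of cultured astrocytes was sequenced as 100-bp pairs, and 8 libraries in 4 groups of 2 were used, grouped by the labels. Per the submitters' processing notes and methods, the authors mapped reads to GRCm38 with STAR (v2.5.4b) and quantified genes with RSEM (v1.3.0), and the deposited files give expected counts, effective lengths and TPM per gene. TPM from the authors compares levels between genes. The annotation release and RSEM strand setting are not given in the sources used here. Expected counts, deposited unscaled, were rounded. CPM were computed with TMM factors over 8 libraries. Tests used edgeR (v4.0.16, R v4.3.3) quasi-likelihood fits with filterByExpr and Benjamini-Hochberg adjustment over all genes at 0.05. Knockdown comparisons used the 4 libraries of their state, and TNF-α responses and their difference used all 8. DESeq2 (v1.42.0), other scalings, filters, an effective-length offset, a replicate block and each library left out were alternatives. The tests were checked on simulated data. Total counts set the precision, with a floor of 3 counts. Figures used matplotlib (v3.10.9).

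The members and the gene lists were chosen with earlier results of these data known. The named genes were all 10 members, up to 4 genes per list and comparison with the smallest p among those that passed, Ifnb1, Irf3, Irf7 and Mb21d1, and the 3 nearest genes by correlation. One gene named by this rule is not reported here. The 8 lists held 74 genes, of which 1 symbol was not matched, and 7 marker lists were summed. Libraries of a group differed by more than sampling noise (chi-square per degree of freedom 13.8 to 55.4).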

Additional observations from a re-analysis of the deposited data

How the results depend on the processing

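With 2 libraries a group, the counts of calls moved with the settings, and the causes were not tested. No called value changed sign. Where a library was left out, the remaining one of its group was assumed to vary like the other groups. Of the members' values under alternatives, 652 kept their direction and their side of the threshold or stayed uncalled, 44 newly passed and 42 no longer passed. In the basal knockdown comparison (0 members, 1524 genes) DESeq2 called 2492 genes, no filter on low counts 1 member and 3957 genes, the replicate block 1 and 4712, and all 8 libraries 1 and 2762. Leaving out 1 library gave 0 to 2 members and 1 to 5256 genes. After TNF-α (5 members, 2360 genes) no filter called 4540 genes and the replicate block 4302, with 5 to 7 members under every setting that kept all libraries. Leaving out 1 library gave 0 to 7 members and 0 to 5028 genes.

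For TNF-α in control KD (2 members, 403 genes) DESeq2 called 5 members and 742 genes, no filter 5 and 1255, the replicate block 5 and 988, and the 4 control KD libraries alone 0 and 72. Leaving out 1 library gave 0 to 3 members and 180 to 313 genes. For TNF-α in GSTM1 KD (6 members, 406 genes) DESeq2 called 630 genes, no filter 1050, the replicate block 808 and the 4 GSTM1 KD libraries alone 691, with 5 to 7 members. Leaving out 1 library gave 0 to 6 members and 74 to 444 genes. For the difference of responses (0 and 0) DESeq2 called 27 genes and no filter 4 members and 134 genes. Leaving out 1 library gave 0 members and 0 to 2 genes.

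The replicate numbers are not said to pair libraries. Deviations of same-numbered libraries correlated at 0.165 to 0.575, over 2 numbers only, so the block is an alternative. Scaling moved the median log2 fold change of all genes by less than 0.1. With library size only, the balance of calls over all genes turned in both knockdown comparisons. In the basal state 870 were higher and 784 lower, against 686 and 838 with TMM. After TNF-α 1350 were higher and 1163 lower, against 1059 and 1301 with TMM. Tmem173 and basal Zbp1 rest on few counts, which limits their precision.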

Other observations

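The effective length that RSEM gave to a gene, an average over its isoforms weighted by their estimated share, was steady for some members and not for others. For Mavs it was between 2645 and 2668 bases and for Tmem173 between 2057 and 2078 bases over the 8 libraries. For Zbp1 it was 860 and 731 bases in basal control KD, 542 and 933 in basal GSTM1 KD, 947 and 699 in control KD after TNF-α and 1102 and 1121 bases in GSTM1 KD after TNF-α, the 2 longest values being those of the group with the most counts. For Adar it was 4493 and 4527 bases in GSTM1 KD after TNF-α, below the 4665 to 4964 bases of the basal libraries, while the control KD libraries after TNF-α were at 4473 and 4859 bases. For Tbk1 the basal GSTM1 KD libraries, at 2639 and 2655 bases, stood above the other 6, which were between 2252 and 2532 bases. These lengths were not tested. With effective lengths as offsets in edgeR, 5 members passed in the knockdown comparison after TNF-α, Dhx58 (1.51, adjusted p = 0.0458) among them and Tmem173 (-1.87, adjusted p = 0.0502) not, where the adjusted p over all alternatives ran from 2.95e-08 to 0.203 and from 0.00417 to 0.308.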
